A study of Mus musculus with 28 samples.

Results

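The 12 kidneys described here came from male db/db mice of 26 weeks that had had 1 kidney removed (uninephrectomized, Unx), and all carried the same labels for genotype, surgery, age and sex. The question was which transcripts differed most from kidney to kidney inside this 1 group and which rose and fell together. The 12 libraries were taken by their labels from a bulk RNA-seq series of 28 kidney libraries, whose other groups were 5 intact db/m males of 26 weeks, 6 intact db/m males of 35 weeks and 5 uninephrectomized db/db males of 35 weeks. The db/db mouse lacks a working long form of the leptin receptor and becomes obese and diabetic; all db/db animals of the series were uninephrectomized. The labels do not state that each library is 1 animal, so the spread may be partly technical. Values are the deposited expression values, which were scaled by the authors, and levels are not corrected for transcript length, so no level is compared between genes. Of the 14845 genes, 11595 (78.1%) had a value of at least 1 in all 12 libraries and were kept. At the edge of that filter, 87 kept genes had a lowest value under 1.1 and 92 genes left out had a lowest value of 0.9 or more.

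The proximal tubule of male mice expresses a set of transporters and enzymes that depend on androgen. MHC class II genes are transcribed under the coactivator Ciita, in antigen-presenting cells and in tubule cells exposed to interferon gamma. The circadian clock is a feedback loop in which Clock and Arntl (Bmal1) drive the Per, Cry, Nr1d1 and Dbp genes through E-box sequences, so the levels of its transcripts follow the time of day. Blood left in the organ adds haemoglobin transcripts. In whole tissue, fewer cells of a type and less RNA per cell cannot be told apart.

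The libraries were much alike. Estimated depth lay between 22.2 and 28.6 M counts (median 24.9 M), and Pearson r between 2 libraries across the kept genes lay between 0.981 and 0.987. The first 3 principal components held 13.3%, 11.5% and 10.9% of the variance, where 11 equal components would hold 9.09% each. Replicates 01 and 04 lay farthest from the group mean, each with a root mean square deviation of 0.238 on the log2 scale, and replicate 02 lay nearest at 0.202. Kidney markers were present in all 12, such as Umod of the thick ascending limb, which lay between 751 and 1069. No marker of T and NK cells (0 of 10 in the file), neutrophils (0 of 4), adrenal (0 of 3), urothelium (0 of 8) or skeletal muscle (0 of 2) passed the filter, and 1 of 6 of B and plasma cells did.

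The typical gene varied little. Expression was compared on the log2(value + 1) scale. The median SD of log2(value + 1) over the 12 kidneys was 0.184, and counting error alone would give a median of 0.0542. The SD was at least 2 times the counting error in 10993 genes (94.8%). Sod2, the mitochondrial superoxide dismutase, was the steadiest of the genes with a median value of at least 10: it lay between 497 in replicate 09 and 522 in replicate 02, an SD of 0.03. Poldip2, Prdx3, Txn2 and Tceal9 followed, each with SD 0.03 or 0.04. At the other end, 164 genes (1.41%) had an SD of at least 0.5, and 45 of these had a median value of at least 10. Of the kept genes, 2 reached an SD of 1: Slco1a1 (1.40) and Depp1 (1.13). Depp1, a target of FOXO factors, had a median value of 9.64, just under the minimum of 10 for the list that follows. It lay at 46.1 in replicate 01 and 25.1 in replicate 07 and at 3.37 in replicate 10, a 13.7-fold range, and its r with Igfbp1, another FOXO target, was 0.80.

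The 25 most variable genes with a median of at least 10 included transporters and enzymes of the tubule, globins, clock genes and genes of antigen presentation. Slco1a1 had r 0.90 with Ugt2b37, 0.85 with Car3 and 0.77 with Pzp, and r -0.91 with Ugt1a2 and -0.77 with Ugt1a1. The globin genes Hbb-bs, Hba-a1, Hba-a2 and Hbb-bt were also among them. The clock genes Per1 and Per2 and the clock-regulated gene Noct had SDs of 0.63, 0.61 and 0.74. Igtp, an interferon-inducible GTPase, and H2-DMb1, which loads peptides onto class II molecules, were highest in replicate 01. Of the 300 pairs among these 25 genes, 16 (5.33%) had r of at least 0.7 and 12 (4.00%) had r of at most -0.7. Among all 67216215 pairs of kept genes the shares were 0.676% and 0.64%. These 25 genes were chosen by their spread, and the paralogs among them share sequence.

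**Figure D1:**
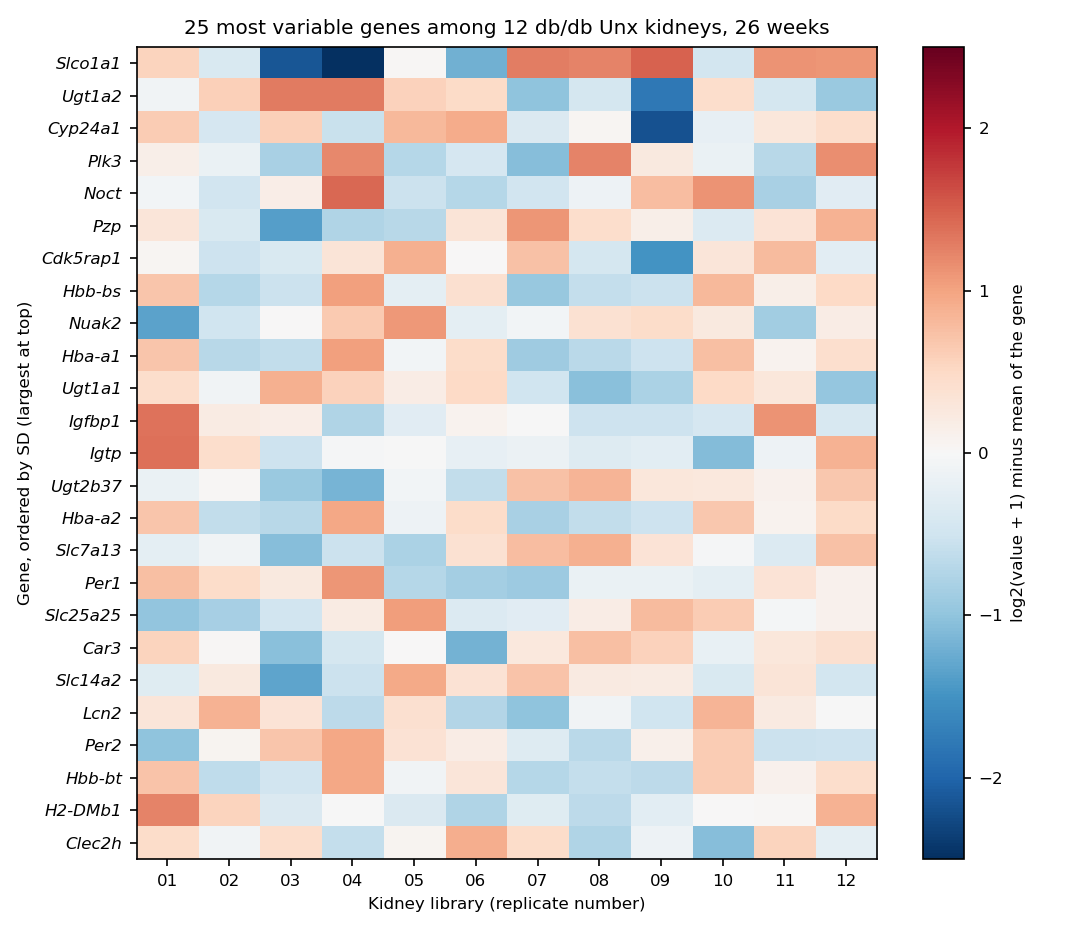
Deviation of log2(value + 1) from the mean of the gene (colour, blue low and red high) for the 25 most variable genes (rows) in each of the 12 kidneys (columns, replicate number). Slco1a1 is lowest in replicates 03 and 04, where Ugt1a2 is highest, and the 4 globin genes share 1 pattern.

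Slco1a1, an organic anion transporter of the proximal tubule that is androgen dependent, varied most of all (chromosome 6, 141907282 to 141946962, GRCm38). Its value was 1.95 in replicate 04, 3.24 in replicate 03 and 7.07 in replicate 06, had a median of 22.2, and reached 50.9 in replicate 09. The range was 26.0-fold and the mean 24.9 ± 17.7 (SD, n = 12). Replicates 07, 08, 09, 11 and 12 lay between 39.0 and 50.9, and the other 7 lay at 26.3 or below.

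With Slco1a1 as the covariate, limma called 44 of the 11594 other genes (0.38%) at an adjusted p under 0.05, 30 rising and 14 falling with it. Cd36, the fatty acid translocase, followed it most closely. It lay at 36.6 in replicate 04 and 149 in replicate 09 with a median of 92.0, and its r with Slco1a1 was 0.96 (rho 0.97, adjusted p 2.73e-07). Its slope was 0.39 ± 0.03 (SE), in log2 units per log2 unit of Slco1a1. Ugt3a1, a glycosyltransferase, had r 0.94 (adjusted p 0.000239). Kap, the kidney androgen-regulated protein, lay between 939 in replicate 04 and 3233 in replicate 12 and had r 0.93 (rho 0.82, adjusted p 0.00311). Selenop, the plasma selenium carrier, had r 0.92 (adjusted p 0.000458).

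Other genes called in the same direction included further enzymes and transporters. Inmt had r 0.91, Ugt2b37 0.90, Acsm3 0.90, the urate transporter Slc22a12 0.86 and Car3 0.85. These names were chosen after their values were seen, and the medians behind them run from 32.5 for Acsm3 to 572 for Slc22a12. Car3 also stands on the adipocyte marker list. The other adipocyte gene kept, Fabp4, lay between 46.6 and 73.7 and had r 0.37 with Slco1a1. The summed value of both ran from 74.5 in replicate 03 to 117 in replicate 08. Of the further adipocyte markers on the list, Cidec lay between 0 and 0.838 and Plin4 between 0.555 and 2.52. The part of fat tissue in the result was not tested. Of the 13 other male-biased genes kept, 3 were called, all rising (Kap, Acsm3 and Cndp2), and their median r was 0.63. Slc7a13, the aspartate and glutamate carrier fixed as the partner of Slco1a1, did not pass: r was 0.627 (permutation test, adjusted p 0.0643 over 8 pairs) and 0.363 without replicates 03 and 04.

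Of the called genes that fell as Slco1a1 rose, Ptprd and Ugt1a2 had the lowest r. Ptprd, a receptor tyrosine phosphatase, had r -0.91 (adjusted p 0.00254). Ugt1a2 conjugates glucuronic acid to small molecules (chromosome 1, 88200601 to 88218997). It lay at 554 in replicate 04 and 552 in replicate 03, had a median of 256 and fell to 64.3 in replicate 09, which is the kidney with the highest Slco1a1. Their r was -0.91 (rho -0.92, adjusted p 0.0181), and -0.86 without replicates 03 and 04. The ornithine aminotransferase Oat had r -0.87, and Nox4, an NADPH oxidase of the proximal tubule, was also called. Per2 was called too, with r -0.78, but its r was -0.58 without replicates 03 and 04. Ugt1a1 overlaps Ugt1a2 and shares its last exons, so their r of 0.79 may reflect shared reads; this was not tested.

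The scores of the male-biased and female-biased lists had opposite signs in most kidneys. The score of the 14 male-biased genes, the mean log2 deviation of its members, ran from -0.49 in replicate 03 to 0.47 in replicate 12. Its r with the score of the 11 genes on the female-biased list was -0.82 over the 12 kidneys, and -0.84 without its 2 extreme libraries. Gsta2, a glutathione transferase, lay between 124 in replicate 09 and 417 in replicate 06 and had r -0.73 with Slco1a1. Bhmt, betaine-homocysteine methyltransferase, lay between 41.3 and 163 and had r -0.68. The other female-biased genes with a negative r had values from -0.42 for Cyp4a14 to -0.64 for Gsta4. Cyp2a4 and Cyp2d9, also placed on that list, had a positive r: 0.85 for Cyp2a4, which was called, and 0.67 for Cyp2d9, which was not. Both fell in the co-varying group of Kap and Slco1a1 described below. Whether they are female-biased in kidney was not tested, and both enter the score of that list. All 12 libraries were labelled male. The male-biased score had r 0.94 with that of the straight proximal tubule list, and 0.81 once the 4 genes on both lists were left out of both. With the early proximal tubule list r was -0.32, and -0.68 once Kap, the 1 gene on both lists, was left out of both. The genes of these 2 tubule lists varied together only weakly. The median r among the 10 straight segment genes was 0.12, with Slc5a1 and Cyp7b1 at -0.83, and among the 11 early segment genes it was 0.21. Their scores thus do not stand for every member, and whether the share of these segments in the tissue moved was not tested.

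The count of genes called with Slco1a1 fell most without 2 of the kidneys. It was 18 without replicate 03 and 27 without replicate 07, and from 31 to 61 when another library was left out. It was 19 when p-values were adjusted over all anchors together. On ranks it was 0, as with every anchor reported here. Ranks give all genes nearly the same variance, which bounds the test statistic, so a call was hardly possible there. In the other 16 libraries, after each group's mean was removed, r with Slco1a1 was 0.82 for Cd36, 0.82 for Kap, 0.88 for Ugt2b37 and 0.70 for Selenop. It was 0.04 for Ugt3a1, 0.09 for Ptprd, 0.10 for Car3, -0.11 for Per2 and -0.36 for Ugt1a2.

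**Figure D2:**
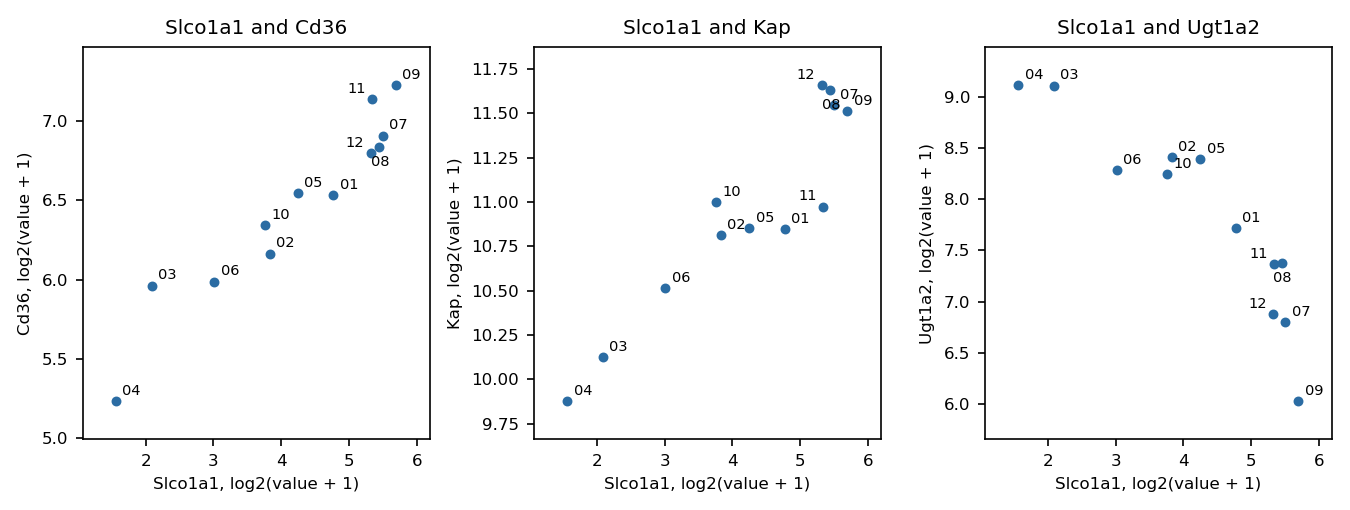
log2(value + 1) of Cd36, Kap and Ugt1a2 (vertical axes) against that of Slco1a1 (horizontal axes), 1 point per kidney, labelled by replicate number. Cd36 and Kap rise with Slco1a1 and Ugt1a2 falls, and replicates 03 and 04 hold the low end of Slco1a1 in all 3 panels.

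The antigen presentation genes were the second set with many calls. Cd74, the class II invariant chain, lay at 822 in replicate 01, 637 in replicate 12, 448 in replicate 02 and 373 in replicate 11, and between 218 and 323 in the other 8 kidneys. Its mean was 374 ± 181 (SD, n = 12). With Cd74 as the covariate, limma called 28 genes (0.242%), 26 rising and 2 falling. The class II chains came first: H2-Eb1 (r 0.97, adjusted p 5.28e-08), H2-Aa (r 0.97, adjusted p 5.28e-08) and H2-Ab1 (r 0.97, adjusted p 6.04e-09). They lie side by side on chromosome 17, H2-Ab1 at 34257689 to 34269419 and H2-Eb1 at 34305867 to 34316674.

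H2-Ab1 ran from 178 in replicate 03 to 621 in replicate 01, with a median of 246. In the fixed pair, Cd74 and H2-Aa had r 0.971 (permutation test, adjusted p 0.00032 over 8 pairs) and rho 0.895 (adjusted p 0.00208). Without replicates 01 and 12 their r was 0.888. Of the 6 other class II genes kept, 5 were called. The exception was Ciita, the class II coactivator, which lay between 2.02 and 8.75 and had r 0.73 (rho 0.60). Without replicates 01 and 12 the r of Ciita was 0.44. Of the 21 pairs within the list of 7 class II genes, 19 had r of at least 0.7. The median r was 0.89, and 0.96 in the other 16 libraries.

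Several genes of class I presentation were also called with Cd74. Psmb8, an immunoproteasome subunit, had r 0.97 with Cd74 and lay between 11.6 and 30.7. H2-D1 and H2-K1, the classical class I heavy chains, each had r 0.94, and B2m, their light chain, 0.89. The peptide transporter genes were not called: Tap1 had r 0.66 (-0.05 without replicates 01 and 12) and Tap2 had r 0.59. Without those 2 libraries r was 0.75 for H2-D1, 0.72 for H2-K1 and 0.63 for B2m. B2m lay between 216 in replicate 08 and 514 in replicate 01. The transcription factor Irf1 (r 0.86) and the GTPase Igtp were also called. The 2 genes that fell were Dpyd, which breaks down pyrimidines (r -0.82, adjusted p 0.0461), and Hspa8, a constitutive chaperone (r -0.81, adjusted p 0.0187). Without replicates 01 and 12 their r was -0.51 and -0.54. Without replicate 01 alone, 0 falling genes were called.

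These calls leaned most on 1 kidney: without replicate 01, 10 genes were called with Cd74. Leaving out any other gave from 21 (without replicate 12) to 32. On ranks, where a call was hardly possible, 0 were called. Markers of macrophages moved with the class II score. For the 11 of 16 macrophage genes kept, the r of the 2 scores was 0.66 (0.52 without the 2 extreme libraries), and 0 of the 11 were called with Cd74. Their summed value ran from 122 in replicate 04 to 233 in replicate 12. Lyz2 lay between 44.8 and 107 and had r 0.69 with Cd74. All 10 T and NK cell markers in the file were left out by the filter, and Cd3e lay between 0 and 1.86. The part of immune cells in the class II result was not tested.

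The interferon response genes were measured from Ifit3. Ifit3, an interferon-induced antiviral gene, lay between 15.6 in replicate 04 and 29.6 in replicate 11, and limma called 3 genes with it (0.0259%). They were Tmem140 (r 0.87, adjusted p 0.00619), Lpin1 (r -0.90, adjusted p 0.00619) and Serpina1d (r -0.86, adjusted p 0.0333). Without replicate 04 the count was 0, and without replicate 11 only Lpin1 was called. The count was also 0 on ranks, where a call was hardly possible. The Serpina1d call was also lost without replicate 01, 05, 09 or 10. The fixed partner Isg15 had r 0.477 (permutation test, adjusted p 0.158). The 19 interferon genes had a median r of 0.36 among themselves in these 12 kidneys and of 0.82 in the other 16 libraries, a difference that was not tested.

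Promoters of genes that moved with Cd74 are shown because interferon acts through the interferon-stimulated response element, 2 GAAA cores separated by any 2 bases. It was searched on both strands in the 250 bases before the start of transcription. It was found in 3.46% of 27025 genes of the RefSeq table (GRCm38.p6), in 10 of 16 interferon genes with a promoter and in 4 of 17 genes of the group of Cd74 described below. Of the 4 class II genes with a promoter there, 0 held it. Capitals mark the matches, and a match is a description of the letters only. The first lies at chr11:58199306-58199555 (plus strand) and the second at chr2:122147437-122147686 (plus strand).
Igtp: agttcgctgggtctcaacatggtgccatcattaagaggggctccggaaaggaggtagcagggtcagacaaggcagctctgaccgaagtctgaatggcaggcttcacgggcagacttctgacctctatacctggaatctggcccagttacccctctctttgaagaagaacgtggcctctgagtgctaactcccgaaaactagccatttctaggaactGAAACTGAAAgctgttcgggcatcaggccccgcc
B2m: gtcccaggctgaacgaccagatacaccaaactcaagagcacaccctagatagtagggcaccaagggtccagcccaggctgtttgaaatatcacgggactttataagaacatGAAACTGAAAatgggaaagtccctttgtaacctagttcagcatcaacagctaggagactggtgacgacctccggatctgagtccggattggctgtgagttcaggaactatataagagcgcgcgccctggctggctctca

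**Figure D3:**
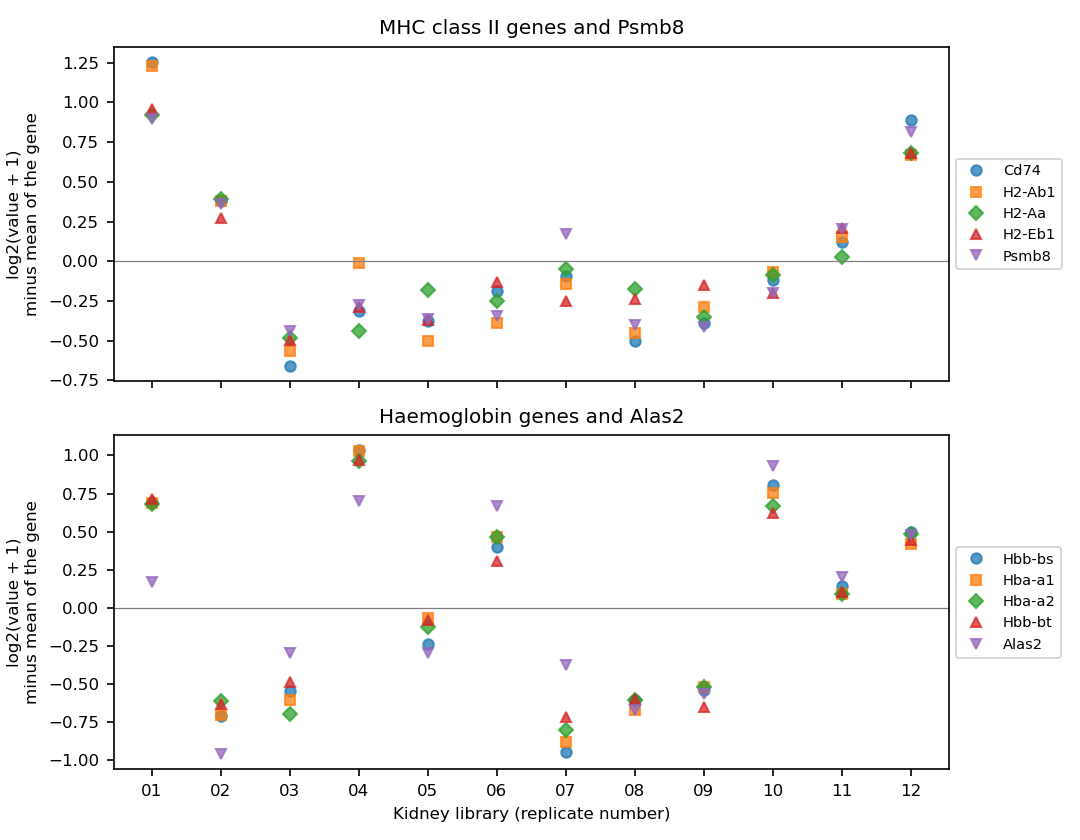
Deviation of log2(value + 1) from the mean of the gene in each of the 12 kidneys, for class II genes with Psmb8 (upper panel) and for haemoglobin genes with Alas2 (lower panel); each symbol is 1 gene in 1 library. Class II genes are high in replicates 01, 12 and 02, and the globin genes in replicates 04, 10, 01, 12 and 06.

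The erythroid list had the highest median r of all lists, 0.90 against 0.89 for class II, though a smaller share of its pairs had r of at least 0.7 (66.7% against 90.5%). Hba-a1 lay at 294 in replicate 04, 242 in replicate 10 and 232 in replicate 01, had a median of 145 and was lowest at 77.4 in replicate 07. Hbb-bs, the major beta chain, lay between 100.2 in replicate 07 and 398 in replicate 04. Their r was 0.99 (rho 0.99), and the same 0.99 without replicates 04 and 07. The alpha chain genes are near-identical copies on chromosome 11, so reads may be shared between them, but the beta genes lie on chromosome 7. Alas2, the erythroid enzyme of haem synthesis, lay between 1.37 and 7.79 and had r 0.90 with Hba-a1. The median r of the 6 erythroid genes kept was 0.90, and 0.88 in the other 16 libraries.

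The globin genes had low r with class II and endothelial genes and a higher one with podocyte genes. Hba-a1 had r 0.36 with Cd74 and r -0.16 with Pecam1, an endothelial marker. The erythroid score had r 0.85 with the podocyte score (rho 0.77), and 0.85 again without its 2 extreme libraries. Of the podocyte genes, Ptpro had r 0.69 with Hba-a1 and Nphs1 had r 0.41. The podocyte score itself ranged only from -0.22 to 0.20. This pair was 1 of 780 list pairs computed.

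Clock genes differed between the kidneys by up to several fold. Per2, a core repressor, lay at 28.5 in replicate 04, 23.4 in replicate 03 and 22.6 in replicate 10, with a median of 15.2 and a lowest value of 6.55 in replicate 01. Tef, a PAR bZIP output factor, followed it over a narrower range of 191 to 266, with r 0.94 (rho 0.94). Dbp, a related output factor and the fixed anchor, lay between 79.5 in replicate 08 and 142 in replicate 03. Its r was 0.76 with Tef and 0.62 with Per2.

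The r of Arntl and Nr1d1 with these genes was negative but mostly weak. Arntl, the activator, was at 0.498 in replicate 04 and 0.566 in replicate 03 and reached 5.62 in replicate 06. It did not pass the filter, so its pair with Dbp was not tested; on the unfiltered values r was -0.70 (rho -0.69). Nr1d1, the repressor of Arntl, lay between 53.3 in replicate 04 and 98.6 in replicate 07 and had r 0.75 with Arntl. Its r was -0.38 with Dbp, -0.51 with Per2 (-0.33 without replicates 01 and 04) and -0.57 with Tef (rho -0.32). Arntl had r -0.48 with Per2 (-0.24 without replicates 01 and 04). Cry2, another repressor, lay between 24.0 and 45.4 and had r -0.89 with Nr1d1 (rho -0.94). Per1 and its fellow E-box gene Ciart had r 0.73, but Per1 had r 0.02 with Per2.

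Few other genes followed Dbp. limma called 1 of 11594 (0.00863%): Ndrg1, a stress- and hypoxia-responsive gene, between 1861 and 2707, with r -0.87 (adjusted p 0.0242). The Ndrg1 call was lost without replicate 01, 03, 04 or 06 (adjusted p 0.0540 to 0.136). The count was 0 without 01, 03 or 06, 1 (another gene, rising) without 04, 2 without 08 and 4 without 09. It was 0 after quantile normalization and with depth as a covariate, and 0 on ranks, where a call was hardly possible. Of 10 repressing-limb and output genes other than Dbp, 0 were called, and 3 had r of at least 0.7, a value reached by 0.716% of all genes. The median r among the 11 genes of that list was 0.39, and it was 0.26 in the other 16 libraries. There, Per2 and Tef had r -0.16, Per2 and Nr1d1 -0.87, and Dbp and Nr1d1 0.86. The labels give no hour of collection.

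**Figure D4:**
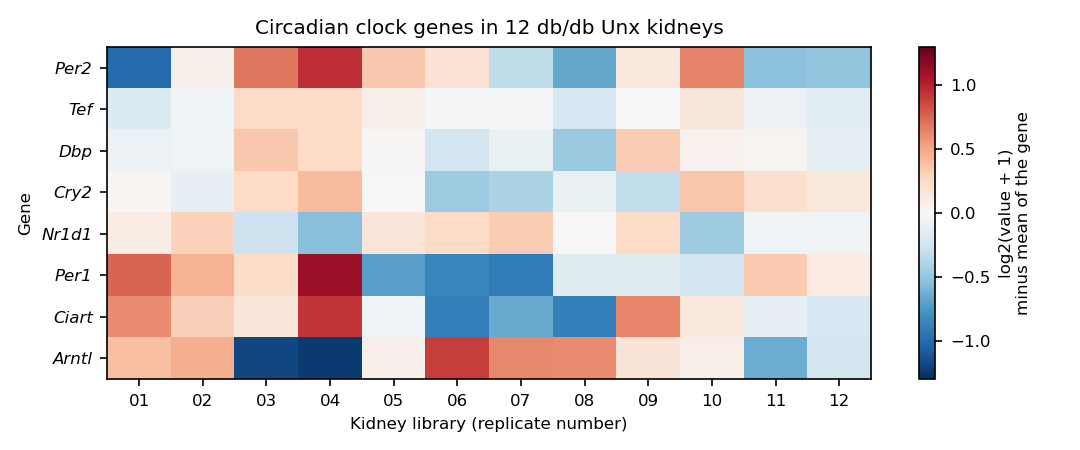
Deviation of log2(value + 1) from the mean of the gene (colour) for 8 clock genes (rows) in each of the 12 kidneys (columns). Replicates 03 and 04 are high in Per2, Tef, Dbp and Cry2 and low in Arntl and Nr1d1; Arntl did not pass the filter on low values.

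Clock promoters are shown for their E-box, the sequence CACGTG bound by Clock with Arntl. It was searched on both strands in the same 250-base window, reads the same on both, and occurred in 6.86% of 27025 genes. Of 10 repressing-limb and output genes with a promoter in the table, 4 held it: Bhlhe41, Ciart, Per1 and Tef. Ciart held 3 matches (chr3:95882229-95882478, minus strand), Per1 held 1 (chr11:69098699-69098948, plus strand) and Tef held 1 (chr15:81802423-81802672, plus strand). Where a gene had several promoters in the table, the first with a match is shown. The Per1 window lies inside the gene, which begins at 69095217, and so stands before a later start. Capitals mark the E-box.
Ciart: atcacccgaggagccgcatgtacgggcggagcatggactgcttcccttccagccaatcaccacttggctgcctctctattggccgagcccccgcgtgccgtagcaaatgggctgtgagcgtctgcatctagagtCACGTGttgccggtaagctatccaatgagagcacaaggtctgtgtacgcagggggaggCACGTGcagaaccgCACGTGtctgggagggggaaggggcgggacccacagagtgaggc
Per1: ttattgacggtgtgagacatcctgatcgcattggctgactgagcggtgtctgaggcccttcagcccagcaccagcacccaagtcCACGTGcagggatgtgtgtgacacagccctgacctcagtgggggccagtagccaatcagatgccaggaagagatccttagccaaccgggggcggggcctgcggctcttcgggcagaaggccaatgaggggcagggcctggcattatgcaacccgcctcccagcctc
Tef: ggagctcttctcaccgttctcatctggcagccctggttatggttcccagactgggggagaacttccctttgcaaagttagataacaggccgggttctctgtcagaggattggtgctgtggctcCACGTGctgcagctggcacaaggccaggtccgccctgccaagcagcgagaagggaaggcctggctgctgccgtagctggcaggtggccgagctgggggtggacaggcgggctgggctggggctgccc

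The remaining anchors gathered few or no genes. Col1a1, a fibrillar collagen chain, lay between 6.17 and 11.8, and 1 gene was called with it (0.00863%): Scd1, a stearoyl-CoA desaturase, with r 0.85 (adjusted p 0.0443). That call was lost when replicate 02, 03, 04, 05, 06, 07, 08, 10 or 11 was left out, without the filter, after quantile normalization and with depth as a covariate. It was also lost on ranks, as was every call. limma called 0 genes (0%) with each of Hmgcs1 of cholesterol synthesis (605 at an unadjusted p under 0.05), Havcr1 of the injured tubule (511) and Umod (989). Estimated depth also called 0 (415 unadjusted). Fos did not pass the filter, at 0.419 to 3.37, and was not tested.

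Partner genes of these anchors were tested too. Umod and Slc12a1, the sodium-potassium-chloride carrier of the same segment, had r 0.690 (permutation test, adjusted p 0.0397), but rho 0.538 (adjusted p 0.154). The call was lost when 1 of the following was left out: replicates 02, 03, 05, 06, 08, 09, 10 and 12. Havcr1 (KIM-1) ranged from 2.41 in replicate 04 to 24.0 in replicate 05, a 9.95-fold range, and had r 0.629 with Lcn2 (adjusted p 0.0643). Vcam1, chosen after its values were seen, followed Havcr1 with r 0.85 (rho 0.90), between 7.40 and 26.4. Col1a1 with Col3a1 (r 0.536, adjusted p 0.119) and Hmgcs1 with Sqle (r 0.365, adjusted p 0.281) did not pass the permutation test. Among PPAR-alpha targets, the fatty acid hydroxylase genes Cyp4a10 and Cyp4a14, neighbouring paralogs, had r 0.86.

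Genes of the mitochondrion and the ribosome moved in small steps. The 13 mitochondrially encoded genes had a median r of 0.69 (0.84 in the other 16 libraries) with a median SD of 0.111. The 26 ribosomal protein genes had a median r of 0.61 (0.68), and the 23 nuclear respiratory chain genes 0.42 (0.68). After quantile normalization the mitochondrial median was 0.37 and that of the respiratory chain 0.09, so these medians depended on how the libraries were scaled. Cholesterol synthesis (0.03), cell cycle (0.03) and the renin-angiotensin genes (-0.05) lay near the median of all pairs, 0.

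Clustering sorted the 500 most variable genes for their level into 8 co-varying groups of at least 10 genes, 165 genes in all. The groups were chosen from these values and get no test. Group 1 (45 genes, led by Kap, Slco1a1, Adh1, Cndp2, Ugt3a1 and Acsm2) was low in replicates 03 and 04 and high in 07, 08, 09 and 12. Group 2 (28 genes, with Nox4, Apob, Gldc, Spp2, Kmo and Ugt1a2) ran against it, with r -0.89 between the group scores. The scores of groups 4 and 6, described below, also had negative r with that of group 1 (-0.78 and -0.66). With the score of group 2 their r was positive (0.73 and 0.71). Gldc, the glycine cleavage enzyme, lay between 166 in replicate 12 and 432 in replicate 03. Group 3 (24 genes) held Cd74 with the presentation genes above.

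Group 4 (22 genes) held genes of fructose and glucose handling: Slc2a5, the fructose carrier, Tkfc, which phosphorylates triose sugars, and Slc37a4, the glucose-6-phosphate carrier. Each of these 3 was lowest in replicate 12 and highest in replicate 10: Slc2a5 ran from 229.9 to 387. Among its other members were Hsd3b3, Wee1 and the clock gene Per2. The group score was highest in replicate 03 (0.34) and lowest in replicate 12 (-0.43). Group 5 (14 genes) held Nuak2, Slc25a25, Ier5l, Osgin1 and Id2. Nuak2, a kinase related to AMPK, lay at 63.6 in replicate 01 and 345 in replicate 05. It ran against Igfbp1 (18.8 in replicate 04 to 83.7 in replicate 01), with r -0.90. Group 6 (12 genes) was led by Retreg1 and Tnfrsf21, and group 7 (10 genes) by Noct and Usp2, with r 0.89 between these last. Noct reached 85.5 in replicate 04 and 68.7 in replicate 10 over a lowest value of 17.2 in replicate 11. Group 8 (10 genes) held Cyp4a10, Cyp4a31, Ehhadh and Acaa1b, fatty acid enzymes of peroxisome and microsome.

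The groups differed in how far they were seen elsewhere. In the other 16 libraries, with group means removed, the median r within group 3 was 0.53 and within group 1 it was 0.42. It was 0.38 in group 8, from 0.24 to 0.28 in groups 4 to 7, and 0.08 in group 2. In the 12 kidneys that chose the groups the medians ran from 0.69 to 0.78. Leaving out replicate 01 lowered that of group 3 from 0.75 to 0.54. With 1000 genes clustered instead of 500 there were 23 groups, and 6 with 250.

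**Figure D5:**
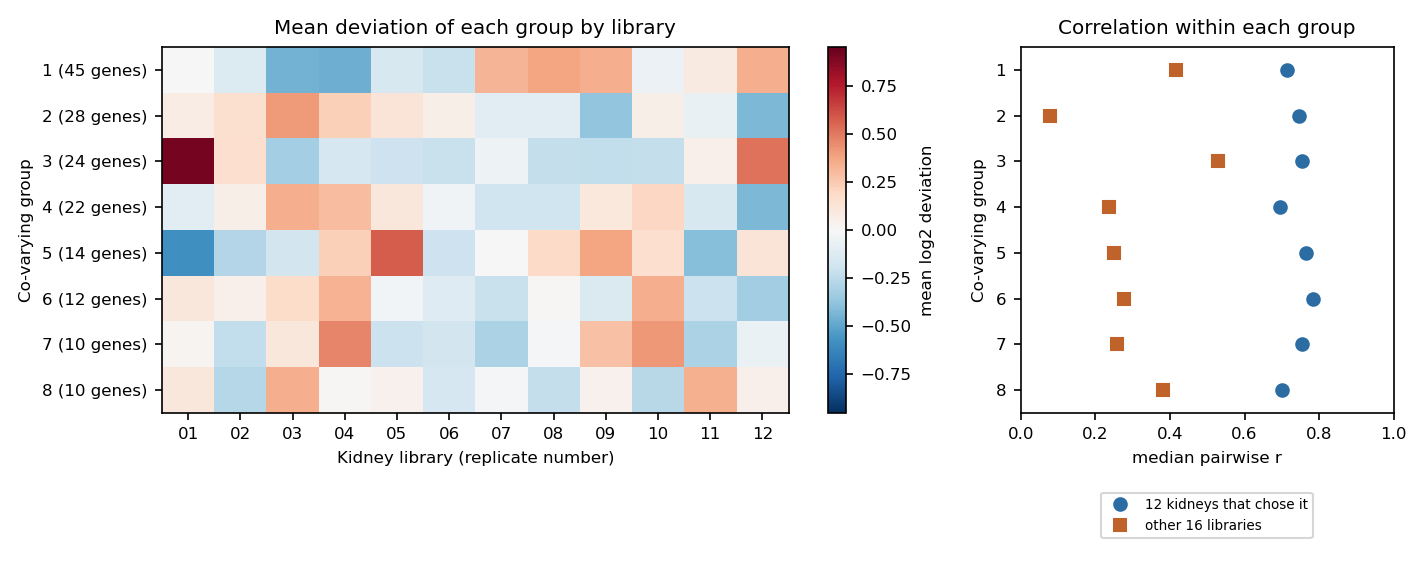
Left, mean log2 deviation of the genes of each co-varying group (rows) in each kidney (columns). Right, median r within each group in the 12 kidneys that chose it (circles) and in the other 16 libraries with group means removed (squares). Groups 1 and 2 have opposite signs in most kidneys, group 3 peaks in replicate 01, and group 2 has the lowest median in the other libraries.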

How the data were processed

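Total RNA of whole kidney was extracted with TRIzol and RNeasy columns and made into Nextera XT libraries, per the labels' protocols. The deposited signal values are scaled estimated counts per gene and library. DRAGEN and the mouse build GRCm38 (mm10) are named per the submitters' processing notes, and the sources used here do not give its version, the annotation or the scaling. In the 12 libraries, 87.6 to 89.7% of the values above 0 and under 2 came out whole, to within 0.1, when divided by a step particular to the library, from which depth was estimated; the counting SD rests on it.

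Values were taken as log2(value + 1), and a gene was kept where none of the 12 values was under 1. Each of 9 anchor genes and the estimated depth was a covariate in limma 3.58.1 (R 4.3.3, trend and robust), with Benjamini-Hochberg adjustment over the genes of that anchor and a threshold of 0.05. The fit was tried on simulated data in which genes varied independently, apart from a set given a known slope. That trial did not cover other covariation between genes or an outlying library. Anchor and partner were compared by permutation tests (two-sided, 100000 resamples, scipy 1.17.1), adjusted over 8 pairs. All other correlations are descriptions over 12 libraries with no p, and many were chosen after their values were seen. The second r leaves out the 2 libraries farthest from the median of the first gene or list. A list score is the mean log2 deviation of its kept members. Groups came from average linkage on 1 - r, cut at 0.4. In the other 16 libraries the mean of each group was removed first.

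Named genes were the 25 most and 5 least variable with a median of at least 10, the anchors and partners, the called genes with the highest 4 and lowest 2 r per anchor, up to 4 variable members per list and 6 central genes per group; others were added after their values were seen. Results of 1 anchor and a few other genes are not reported here. The members and lists were chosen with earlier results of these data known. Should several libraries come from 1 animal, the p-values would cover technical spread alone. Alternatives were the pseudocount, filter, scaling, ranks, depth as a covariate, adjustment over all anchors, the clustering settings and leaving out each library.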

Additional observations from a re-analysis of the deposited data

How the results depend on the processing

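Of 102 settings other than a library left out, 87 left the direction and the side of the threshold or the size of the count as reported, 14 moved a count by over 1.5 times and 1 reversed a sign; the causes were not tested. On ranks, 0 genes were called with Dbp, Cd74, Ifit3, Col1a1 and Slco1a1. Ranks give all genes nearly the same variance, which bounds the test statistic. That setting could hardly call any gene and so cannot show whether the calls hold. Quantile normalization gave 0 with Dbp and Col1a1, depth as a covariate gave 0 with Dbp and Col1a1 and 6 with Ifit3, and no filter gave 0 with Col1a1. Adjustment over all anchors together gave 19 with Slco1a1 and 1 with Havcr1. With 1000 genes clustered there were 23 groups. The r of Cd74 with Fam177a was 0.74, and -0.32 without replicates 01 and 12, an alternative chosen after seeing the data.

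Leaving out each library in turn gave from 18 to 61 genes with Slco1a1, 10 to 32 with Cd74, 0 to 4 with Dbp, 0 to 4 with Ifit3, 0 to 1 with Col1a1, 0 to 4 with Umod (4 without replicate 08), and 0 with Hmgcs1, Havcr1 and depth. The count of genes with an SD of at least 0.5 and a median of at least 10 ran from 40 to 50. The share of pairs with r of at least 0.7 ran from 0.942% to 0.965%, and of at most -0.7 from 0.905% to 0.925%, with 11 libraries in place of 12. Over the same sets, r ran from 0.948 to 0.982 for Cd74 with H2-Aa, 0.225 to 0.607 for Ifit3 with Isg15, 0.213 to 0.514 for Hmgcs1 with Sqle, and 0.251 to 0.625 for Col1a1 with Col3a1. It ran from 0.552 to 0.719 for Havcr1 with Lcn2 (past the threshold without replicate 07), 0.501 to 0.717 for Slco1a1 with Slc7a13 (past it without 06 or 11) and 0.575 to 0.754 for Umod with Slc12a1. No paired analysis was possible because 1 group alone enters the fits. Depth limits low genes: Arntl and Fos had values under 1 in some libraries and were not tested.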

Other observations

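Covariation was also counted for neighbouring genes, with no test. Of 20001 pairs of kept genes within 100 kb that do not overlap, 1.59% had r of at least 0.7, and of 4154 such pairs within 10 kb it was 2.26%. Among all pairs it was 0.676%. The shares with r of at most -0.7 were 0.66%, 0.506% and 0.64%. In the other 16 libraries the shares of the neighbouring pairs were 1.66% and 2.99%. Several of the closest pairs are paralogs, and the counts of the near-identical ones (globin, Gsta, Cyp4a and H2 genes) are uncertain. Among other neighbours, Fga and Fgg, which encode 2 chains of fibrinogen, had r 0.85, and C1qa and C1qc, subunits of complement C1q made by macrophages, had r 0.81.

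A set of genes on chromosome 12 was high in 1 kidney. Fam177a lay at 35.7 in replicate 01 and between 8.17 and 16.9 in the other 11, and Srp54b, a signal recognition particle gene, at 65.1 in replicate 01 and between 21.2 and 37.3 in the others. Their r was 0.91, and 0.56 without replicates 01 and 12. Srp54a and Srp54b are near-identical copies, so their counts are uncertain. Rn7s1, the RNA of the same particle, had r 0.83 with Cd74, and -0.23 in the other 16 libraries.

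Among the 780 pairs of list scores, the injured tubule and macrophage lists had r 0.89 (rho 0.84), and 0.81 without the 2 extreme libraries. The male-biased and gluconeogenesis lists had r -0.82. Per2 had r -0.88 with Cdkn1a, the p21 cell cycle inhibitor, in the 12 kidneys and 0.19 in the other 16 libraries. Igfbp1 and Tmem140 had r 0.93 here and 0.07 there. Nuak2 and Slc25a25 had r 0.82 here and -0.09 there. None of these differences between library sets was tested.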
